A study of Saccharomyces cerevisiae with 8 samples.

Results

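The 7 min exposure to Iztli peptide 1 (IP-1) is described here on its own array and set against the other exposures of the same series. IP-1 joins an antimicrobial peptide to the pheromone that alpha cells secrete. The IP-1 cells were haploid budding yeast of mating type a, strain BY4741, grown in rich YPD medium and given 10 µM of the peptide for 7 min. The untreated cells were the same strain in the same medium, harvested at the same time without peptide. BY4741 lacks functional HIS3, LEU2, MET17 and URA3, and both groups carry these deletions. The array was chosen by its labels, as 1 of the 4 arrays that cover 3.5, 7, 15 and 30 min, and 2 of the 8 samples are its duplicate spots. One IP-1 culture (Cy5) and 1 untreated culture (Cy3) were hybridised together, so the 2 spots of a feature measured the same labelled RNA and no spread between cultures exists at 7 min. Single values at 7 min are therefore given without a test, and "higher" or "lower" there describes this pair of cultures. All ratios below are log2 of IP-1 over untreated.

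Cells of mating type a sense alpha pheromone with the receptor Ste2, which releases the G protein subunits Ste4 and Ste18 from Gpa1. A kinase cascade of Ste11, Ste7 and Fus3 or Kss1 then frees the transcription factor Ste12 from its repressors Dig1 and Dig2. Ste12 switches on genes for agglutination, cell fusion and nuclear fusion, as well as genes such as SST2 and BAR1 that dampen the signal.

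The 7 min array held 6336 yeast features on 13056 spots, and 6299 of them were above background, meaning that both spots lay over 2 SDs of the local background above its mean in at least 1 channel. The median raw intensity was 259.4 in the IP-1 channel and 432 in the untreated channel, which is 3.18 and 2.43 times the local background. The raw log2 ratios had a median of −0.73, and this shift was uneven. Over 10 equal classes of brightness it was −1.1 in the dimmest and −0.01 in the brightest. After background correction and loess the class medians lay between −0.02 and 0.04, so every ratio below is relative to features of equal brightness. The spots of a feature differed by a median of 0.084, correlated at 0.755 across features, and gave a spot SD of 0.116. All 6336 feature ratios had an SD of 0.219, against 0.247, 0.345 and 0.18 at 3.5, 15 and 30 min.

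**Figure D1:**
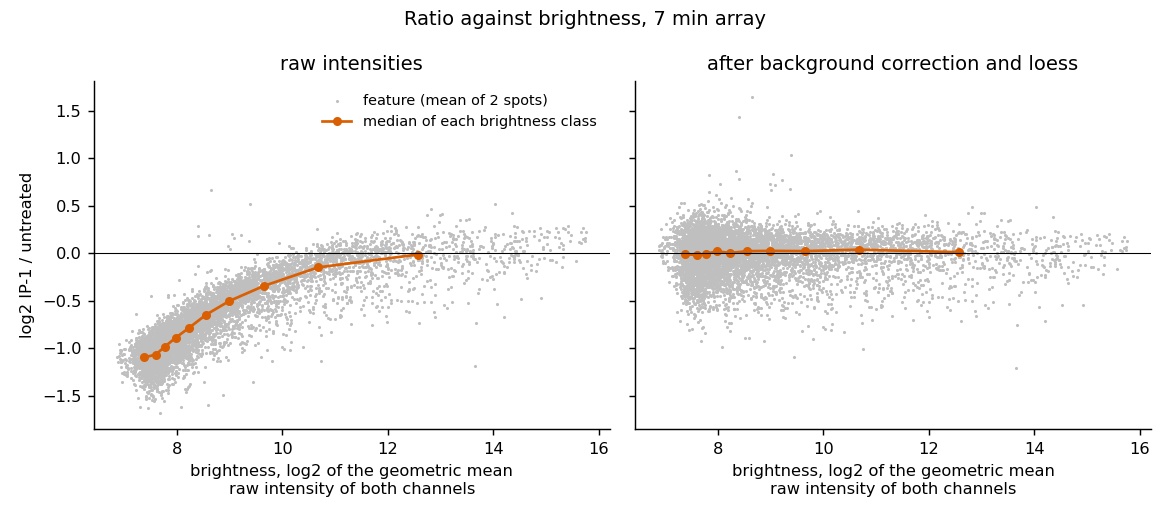
Log2 ratio of IP-1 over untreated on the 7 min array (vertical axis) against brightness (horizontal axis, log2 raw intensity), for raw intensities on the left and after background correction and loess on the right. Grey points are features and orange points the median of each of 10 brightness classes, which reaches −1.1 at the dim end of the raw values and stays between −0.02 and 0.04 after loess.

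At 7 min, 13 features were at least 1.5-fold higher in IP-1 cells in both spots (0.206% of 6299), and 50 were at least 1.5-fold lower (0.794%). These counts were smaller than at 3.5 min, with 72 higher (1.17%) and 63 lower (1.02%), and than at 15 min, with 149 higher (2.36%) and 314 lower (4.98%). At 30 min 21 were higher (0.334%) and 16 lower (0.254%). The counts were not compared by a test. The split between higher and lower depended on the scaling: the deposited log ratios gave 1 higher and 3638 lower as they stand, and 775 higher and 79 lower after median centring without loess. At 2-fold in both spots, 3 features were higher (0.0476%), namely AGA1, MRPL25 and FIT2, and 2 were lower (0.0318%), namely SBH1 and a feature that carries YPR002C-A beside the names of other open reading frames.

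**Figure D2:**
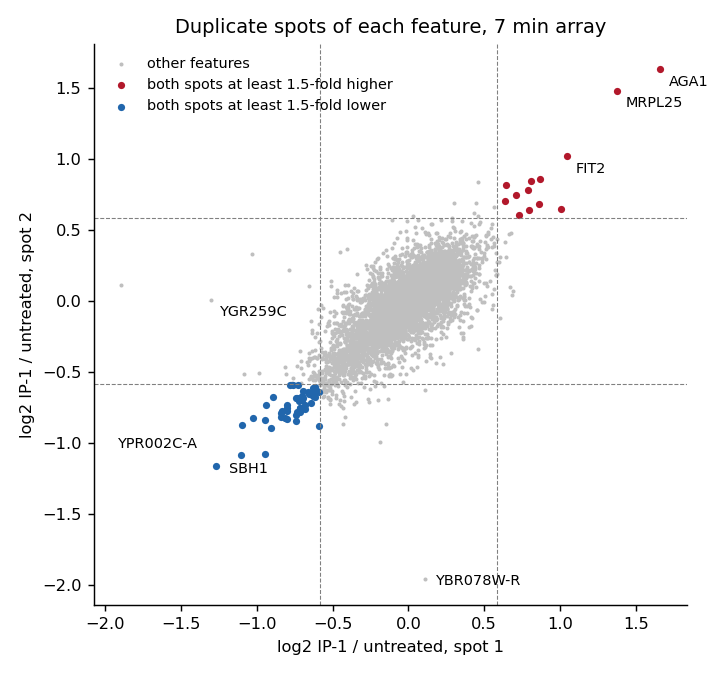
Log2 ratio of IP-1 over untreated at 7 min in spot 1 (horizontal axis) and spot 2 (vertical axis) of the 6299 features above background. Red points are the 13 features at least 1.5-fold higher in both spots, blue points the 50 at least 1.5-fold lower, and dashed lines mark 1.5-fold; YBR078W-R and YGR259C lie far from the diagonal, since their spots disagree.

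AGA1 (YNR044W), which encodes the anchor subunit of a-agglutinin that holds mating partners together, was the highest feature of the array. Its raw intensities were 510.2 and 502.7 in IP-1 cells, against 316 and 320.7 in untreated cells, in a channel whose background was also higher. The spot ratios were 1.66 and 1.63, a mean of 1.65 or 3.13-fold. AGA1 was the only gene of the pheromone response list past 1.5-fold in both spots. Across the exposures it stood at 2.68, 1.65, 1.97 and 1.51 from 3.5 to 30 min.

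MRPL25 (YGR076C), a protein of the large mitochondrial ribosomal subunit, followed at 1.37 and 1.49 in its spots, or 2.69-fold. Its raw intensities were 386.2 and 359.6 in IP-1 cells and 321.9 and 289.8 in untreated cells. FIT2 (YOR382W), a mannoprotein of the cell wall in siderophore iron uptake, was at 1.04 and 1.02, or 2.05-fold, with raw intensities of 837.8 and 763.9 in IP-1 cells and 575.1 and 540.8 in untreated cells. No other member of either gene's list was past 1.5-fold. MRPL25 was the only one of 54 mitochondrial ribosome genes past 1.5-fold, with a list median of 0.06, and FIT2 the only one of 27 iron genes, with a list median of 0.00. The median of all features was 0.01.

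The other higher features had log2 ratios between 0.67 and 0.87. LOC1 (0.87) acts in messenger RNA localisation and assembly of the large ribosomal subunit, and BCD1 (0.72) in the accumulation of small nucleolar RNAs. GTR1 (0.83) is a GTPase upstream of the growth kinase complex TORC1. TAX4 (0.78) regulates phosphoinositide turnover, RPO21 (0.77) encodes the catalytic core subunit of RNA polymerase II, and DAN1 (0.73) is a mannoprotein of anaerobic cell walls. CDC24 (0.73) is the exchange factor of the polarity GTPase Cdc42, and BAG7 (0.67) stimulates GTP hydrolysis by Rho1. YMR304C-A (0.83) and YCL041C (0.67) have no entry in the R64 gene table. All 13 features were above background in both channels.

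All 13 were also higher on the other 3 arrays, and 11, 13 and 8 of them reached 1.5-fold in both spots at 3.5, 15 and 30 min. Their median ratios from 3.5 to 30 min were 1.16, 0.78, 1.23 and 0.74, and for 0 of the 13 was 7 min the highest of the 4 values. Over all tested features 36.9% had a single sign on the 4 arrays. Cy5 marked the IP-1 RNA on every array, so a constant dye preference of a probe and a lasting response to the peptide cannot be told apart. AGA1 values over the exposures ran from 1.51 to 2.68. GTR1 was at 0.67, 0.83, 0.92 and 0.59 from 3.5 to 30 min, and FIT2 at 1.16, 1.03, 1.31 and 0.95. Each exposure is 1 array, so these ranges also hold culture and labelling, and they were not compared by a test.

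Among the lower features, SBH1 came last. It encodes a small subunit of the Sec61 channel, through which proteins enter the endoplasmic reticulum. Its raw intensities were 8262.9 and 8899.4 in IP-1 cells, against 19532.4 and 19518.5 in untreated cells, and its spot ratios of −1.27 and −1.16 make it 2.32-fold lower. The array's locus tag for it, YER087C-A, is not the one the R64 table gives to SBH1, so the name is that of the deposited table. The feature with YPR002C-A followed at −1.10 and −1.08, or 2.13-fold lower, with 436.9 and 430.6 in IP-1 cells and 1127.3 and 1097.1 in untreated cells. SBH1 was brighter than 97.7% of features and this feature brighter than 72.6%, and both were far above background in each channel. None of the other translocon and unfolded protein response genes passed 1.5-fold, and that list of 24 had a median of −0.04.

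The next lowest genes had varied roles. SWC5 (−1.01) belongs to the SWR1 complex that deposits a histone variant, RSC9 (−0.82) to the RSC chromatin remodeller, HSH155 (−0.84) to the U2 part of the spliceosome, and FAL1 (−0.89) is a helicase of small ribosomal subunit assembly. The other genes of the RSC and ribosome assembly lists stayed within 1.5-fold, apart from LOC1. The 17 RSC genes had a median of 0.04 with RSC9 alone past 1.5-fold, and in the ribosome assembly list of 32 genes FAL1 was lower and LOC1 higher around a median of 0.03. SWE1 (−0.79), the kinase that restrains Cdc28 before mitosis, was lower as well. GET2 (−0.78) inserts tail-anchored proteins into the endoplasmic reticulum membrane. HSH155, SWE1 and GET2 were dim, and not all their spots in both channels lay above the empty spots (mean plus 2 SDs).

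Genes of sugar use and transport were among the lower ones. PFK27 (YOL136C), which makes the glycolytic activator fructose 2,6-bisphosphate, was at −1.10 and −0.87, with 147.7 and 162.3 in IP-1 cells and 480.3 and 469.9 in untreated cells. It was similar at every exposure, at −0.88, −0.98, −1.10 and −1.02 from 3.5 to 30 min. The galactose genes GAL7 (−0.76), a uridylyltransferase, and GAL1 (−0.62), galactokinase, passed 1.5-fold, while the list of 7 had a median of −0.04. From 3.5 to 30 min GAL7 was at −0.65, −0.76, −0.89 and −0.56, and GAL1 at −0.28, −0.62, −0.90 and −0.28. The GAL7 feature was brighter than 97.7% of features, and what its probe hybridised to was not tested. Of 16 hexose transporters, HXT2 (−0.69) passed, 12 were below 0 and the median was −0.14, against 0.01 over all features. Both array features that carry the names ENO1 and ENO2, which encode the near-identical enolases, were lower, YGR254W at −0.79 and YGR254W-R at −0.75. The lower glycolysis list, which holds YGR254W, had a median of 0.12 and its highest member was CDC19, pyruvate kinase, at 0.50, opposite in sign to the enolase features.

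Membrane and wall genes also appeared singly. AQR1 (−0.81) is a plasma membrane exporter, PLB1 (−0.80) a phospholipase B, CSE1 (−0.71) the exportin that recycles importin alpha, and GAS1 (−0.63) and GAS3 (−0.65) are glucanosyltransferases anchored in the wall or close relatives of them. Of 20 karyopherin genes 16 were below 0, around a median of −0.09, against 0.01 over all features. The remaining lowest features with 1 gene name were YDL050C (−0.92), YNL120C (−0.90), YGL088W (−0.83), YMR103C (−0.81) and YGR242W (−0.77). YDL050C and YMR103C likewise did not exceed the empty spots in both channels. Of the 50 lower features, 11 without the suffix -r, SBH1 among them, have a locus tag that is missing from the R64 table, against 487 or 7.69% of all features. What their probes hybridise to was not tested here.

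Most of the 50 lower features were below 0 at the other exposures too. On the other arrays, 45, 50 and 48 of them were below 0 at 3.5, 15 and 30 min, but 16, 30 and 8 reached 1.5-fold in both spots. Their medians were −0.45, −0.72, −0.70 and −0.38 from 3.5 to 30 min, and for 25 of them 7 min was the lowest of the 4 values. The features were chosen on the 7 min value, so the last count is a description only. The feature named MF(ALPHA)2 shows such a course, with 0.11, −0.77, −0.44 and −0.59 from 3.5 to 30 min. YGL088W, the next locus tag on that chromosome arm, ran alongside at 0.22, −0.83, −0.65 and −0.89.

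The pheromone response list held both high and low members at 7 min, and AGA1 was its single member past 1.5-fold. Of 47 pheromone response genes 1 was higher and 0 were lower at 1.5-fold, 25 were above 0 and 22 below, and the median was 0.03. The same list had medians of 0.15, 0.31 and 0.06 at 3.5, 15 and 30 min. KAR4 (0.57), a transcription factor of late mating genes, FIG2 (0.53), an adhesin induced by pheromone, SST2 (0.51), which speeds GTP hydrolysis on Gpa1, and MID2 (0.45), a wall stress sensor, were the next highest members and ranked 17, 22, 27 and 46 from the top of the 6336 features. The genes for the cell fusion proteins were near 0 or below. FUS1 had spots at −0.20 and −0.01, with raw intensities of 279.6 and 274.7 in IP-1 cells and 504.2 and 453.6 in untreated cells, although its mean was 1.17 at 3.5 min and 0.68 at 15 min. PRM1 was at −0.23 and 0.07 in its spots, against means of 1.22 at 3.5 min and 2.18 at 15 min, and FIG1 was at −0.20. FUS2 stood at 0.17.

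Genes of the signalling cascade itself were within 1.5-fold at 7 min. STE7 (0.30) and GPA1 (0.25) were the highest of them. STE4, STE11, DIG2 and FAR1, the last of which arrests the cell cycle, lay between 0.03 and 0.11. The receptor gene STE2 (−0.13), KSS1 (−0.12), FUS3 (−0.20), STE5 (−0.21), STE18 (−0.22), STE12 (−0.24), STE20 (−0.05), STE50 (−0.15) and DIG1 (−0.03) were below 0. The nuclear fusion genes CIK1 (−0.07), KAR3 (−0.12), KAR5 (−0.05), PRM2 (0.07) and PRM3 (0.00) were near 0. STE4, STE11, KAR3 and PRM2 were very dim, at brightness percentiles of 6.2, 4.3, 8.1 and 4.7, so their ratios say little. The PRM2 spots also disagreed in sign (0.28 and −0.14). PRM9 (−0.52) and PRM10 (−0.50) were the lowest of the list and were below 0 at every exposure, at −0.45, −0.52, −0.38 and −0.32 for PRM9 from 3.5 to 30 min. The other members were BEM1, AKR1, PRM8, GIC2, AFR1, PRM5, CHS7, MSG5, PRM4 and PRM6, which lay between 0.03 and 0.28, and TEC1, ERG24, RVS161, MCM1 and HYM1, which lay between −0.31 and −0.04.

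The 7 a-specific genes, which mark cells of mating type a, had a median of 0.13 at 7 min and medians of 1.08, 0.82 and 0.28 at 3.5, 15 and 30 min. Their 7 min values ran from BAR1 (−0.17), the protease that degrades alpha pheromone, through STE2 (−0.13), AGA2 (0.12), ASG7 (0.13) and STE6 (0.13) to the a-factor genes MFA1 (0.22) and MFA2 (0.23). BAR1 had raw intensities of 310.7 and 312 in IP-1 cells and 520.2 and 536.1 in untreated cells, and its ratios were 1.19, −0.17, 1.12 and 0.40 from 3.5 to 30 min. MFA1 had 860 and 774.4 in IP-1 cells and 952.5 and 840.5 in untreated cells, with ratios of 1.51, 0.22, 1.77 and 0.41. For 5 of the 7 genes 7 min was the lowest of the 4 exposures, which holds for 21.7% of all features. The exceptions were STE6, which exports a-factor and was at 0.07 at 15 min, and MFA2, which was at 0.18 at 30 min.

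**Figure D3:**
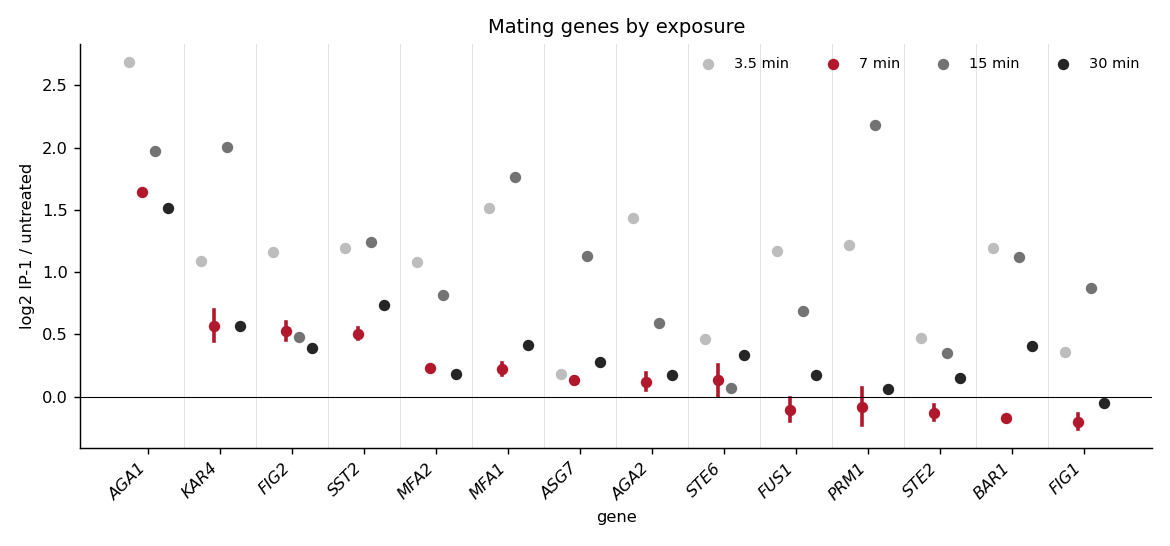
Log2 ratio of IP-1 over untreated (vertical axis) of 14 mating genes (horizontal axis) at 3.5, 7, 15 and 30 min. Each point is the mean of 2 spots on 1 array, and the red bar spans the spots at 7 min. AGA1 stands at 1.65 at 7 min, while MFA1, BAR1, FUS1 and PRM1 lie between −0.17 and 0.22 there, below their values at 3.5 and 15 min.

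Markers of the strain were read on the same array. All 7 a-specific genes were above background in both channels, but so were 6253 of all 6336 features, MF(ALPHA)2 among them. Passing this filter therefore says nothing of mating type. Of the alpha-specific genes, MF(ALPHA)1 (0.02), STE3 (−0.03) and SAG1 (−0.10) were near 0, and MF(ALPHA)2 was lower in both spots (−0.80 and −0.73), with 600.6 and 578.1 in IP-1 cells and 1238 and 1154.1 in untreated cells. The MF(ALPHA)2 feature was brighter than 76.2% of features, and what it hybridised to in these a cells was not tested. HIS3 (0.10), LEU2 (0.06), MET17 (0.08) and URA3 (−0.03) showed no 1.5-fold difference. LEU2, which BY4741 lacks, was brighter than 99.9% of features, at 58407.3 and 53827.1 in IP-1 cells and 52528.4 and 48479.8 in untreated cells. What its probe hybridised to was not tested, and levels were not compared between features. The 10 meiosis genes had a median of 0.00 with 0 past 1.5-fold in either direction.

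Whether 7 min differed from the other exposures was asked with limma across 6152 features, where the lone 7 min array was assumed to vary like the other 3. No feature passed an adjusted p of 0.05 (0 of 6152 higher, 0%, and 0 lower, 0%), and the smallest adjusted p was 0.999. At an unadjusted p under 0.05 there were 66 features (1.07%). With the spots kept apart and duplicateCorrelation, or with an intensity trend and robust fitting, limma again called 0, with 91 and 150 features at an unadjusted p under 0.05. The difference had a 95% interval with a median half-width of 0.43, and a p that misses the threshold does not show that the exposures were alike. BAR1 was 1.08 lower at 7 min than its mean elsewhere (difference −1.08, 95% interval −1.82 to −0.34, unadjusted p = 0.0108, adjusted p = 0.999, limma). For MFA1 the difference was −1.01 (−2.13 to 0.12), for PRM1 −1.23 (−2.84 to 0.37), for FUS1 −0.78 (−1.60 to 0.04) and for STE2 −0.45 (−0.89 to −0.01). Of the 45 pheromone response genes in the fit, STE2 and HYM1 had an unadjusted p under 0.05, both lower. Among the mating genes, the 7 min values therefore come from 1 pair of cultures, and none differed from the other exposures at an adjusted p under 0.05.

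Features called from the other 3 arrays alone give values at 7 min that the call did not use. In the mean of 3.5, 15 and 30 min, 8 features rose (0.13% of 6152) and 2 fell (0.0325%) at an adjusted p under 0.05 in limma. Leaving out 1 of these arrays changed the number called to 0 (3.5 min left out, with 465 at an unadjusted p under 0.05), 6 (15 min) or 20 (30 min). All 10 had the same direction at 7 min, and 7 of them were also past 1.5-fold in both spots there. AGA1 was at 1.65 at 7 min and 2.06 ± 0.59 (SD, n = 3 arrays) elsewhere. For MRPL25 the 7 min ratio was 1.43 and the others averaged 1.53 ± 0.45, and for FIT2 these were 1.03 and 1.14 ± 0.18. The adjusted p of these 3 in the other exposures was 0.0242 each (limma).

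The remaining 5 that rose were RPO21 (0.77 at 7 min, 1.23 ± 0.31 elsewhere), TAX4 (0.78 and 0.96 ± 0.21), SUT1 (0.57 and 0.96 ± 0.16), SST2 (0.51 and 1.06 ± 0.28) and YDL211C (0.47 and 0.77 ± 0.14). SUT1 is a regulator of sterol uptake genes. All 8 stood below their mean elsewhere at 7 min, by 0.10 for MRPL25 up to 0.55 for SST2, and each 95% interval of that difference included 0. They were chosen for high values on those 3 arrays, which favours lower values on an array left out of the choice, so this is a description only. Of the 2 that fell, SBH1 was at −1.21 at 7 min and −1.07 ± 0.24 elsewhere, and PFK27, at −0.98 at 7 min, differed from its mean elsewhere by 0.02 (95% interval −0.38 to 0.42). Ratios at 7 min and those at 3.5, 15 and 30 min correlated across the 6152 features at 0.50, 0.60 and 0.53, where all arrays share probes and dye orientation and genes are not independent replicates.

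**Figure D4:**
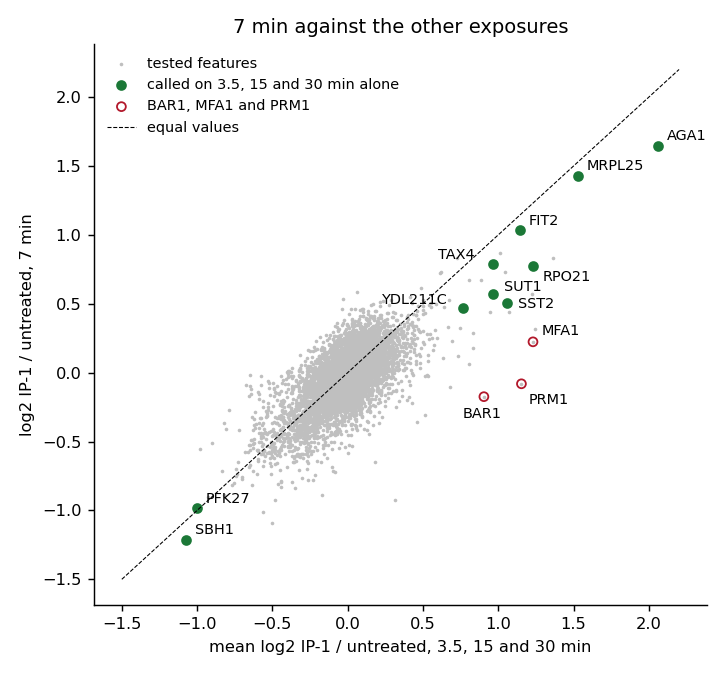
Log2 ratio of IP-1 over untreated at 7 min (vertical axis) against the mean of the 3.5, 15 and 30 min arrays (horizontal axis) for 6152 features. Green points are the 10 features called without the 7 min array, of which the 8 that rose lie under the dashed line of equal values; BAR1, MFA1 and PRM1 (red rings) lie between −0.17 and 0.22 at 7 min.

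The mean over all 4 exposures called 128 features higher (2.08% of 6152) and 420 lower (6.83%). All 13 features that were 1.5-fold higher at 7 min were among the calls, and 40 of the 50 lower ones, but this mean includes the 7 min values. It called 12 features when the 3.5 min array was left out and 10 when the 7 min array was. Of the pheromone response genes 6 were called higher, AGA1, SST2, FIG2, KAR4, FUS2 and MID2, and 2 lower, PRM9 and PRM10.

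Beyond these genes, broad groups had medians close to that of all features at 7 min, which was 0.01 with an SD of 0.219. Neither medians nor counts above or below 0 were compared by a test for any list. The genes of the large cytosolic ribosomal subunit had a median of 0.05, with 27 of 39 above 0 between RPL33A (−0.40) and RPL29 (0.48). Of these 39 features, 11 carry several gene names. Those of the small subunit had a median of 0.00. RNA polymerase subunits had a median of 0.08 with 23 of 31 above 0, and RPO21 was the single member past 1.5-fold. Polarity genes had a median of 0.11 with 19 of 27 above 0, from CLA4 (−0.32), a kinase downstream of Cdc42, to CDC24. Proteasome genes had a median of 0.08 and 0 of 32 past 1.5-fold. Median centring in place of loess left the polarity median at 0.06 and the RNA polymerase median at 0.10, but put both ribosomal subunits at 0.18 and the pheromone response list at −0.02.

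Drug efflux genes had the lowest median of the 43 lists, −0.16, with 11 of 16 below 0 and a range from PDR10 (−0.57) to PDR15 (0.20), both multidrug transporters. This list was dim, at a brightness percentile of 26.6, and its medians were also below 0 elsewhere, at −0.10, −0.18 and −0.10 at 3.5, 15 and 30 min. The 10 histone features had a median of −0.12, and the 22 osmotic stress genes one of −0.09. In the lists of general stress and reserves (32 genes, median 0.06), chaperones (29, 0.00), oxidative stress (27, 0.04), cell wall integrity (33, 0.04) and calcium and calcineurin (18, 0.05), 0 members passed 1.5-fold. Their extremes were TPS1 (−0.37) and TPS3 (0.46) of trehalose synthesis, HSF1 (−0.43), the heat shock factor, and MDJ1 (0.43), a mitochondrial chaperone. In calcium and calcineurin genes the lowest was VCX1 (−0.57) and the highest PMC1 (0.25), both vacuolar calcium transporters.

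Respiration, lipid and biosynthesis genes had medians near 0. The 46 TCA cycle and respiratory chain genes had a median of −0.04, between CIT1 (−0.56), citrate synthase, and COX6 (0.33). The 25 ergosterol synthesis genes had a median of −0.01, the 50 amino acid synthesis genes one of 0.01, and 0 of either passed 1.5-fold. In the cell cycle lists 0 members passed as well, with MBP1 (−0.59 on average), a factor of the G1 to S transition, the lowest. Outside the galactose, wall glucanosyltransferase and ribosome assembly lists, no list had more than 1 member past 1.5-fold.

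**Figure D5:**
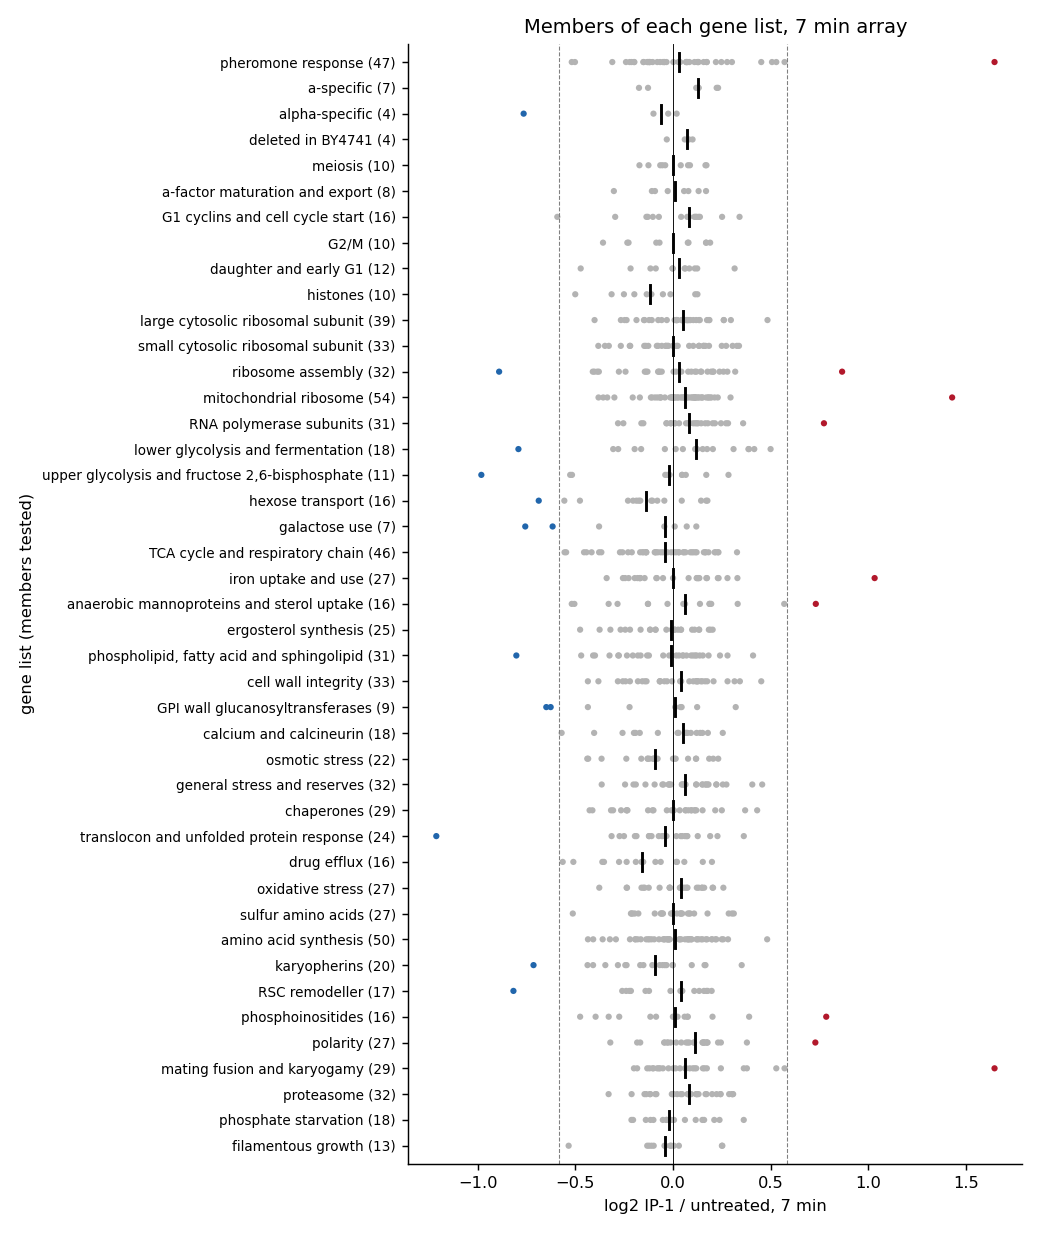
Log2 ratio of IP-1 over untreated at 7 min (horizontal axis) of the members of 43 gene lists (vertical axis, members tested in parentheses). Points are genes, red at least 1.5-fold higher and blue at least 1.5-fold lower in both spots, black bars are list medians and dashed lines mark 1.5-fold; medians run from −0.16 for drug efflux to 0.13 for a-specific genes.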

How the data were processed

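Per the labels' protocols, Trizol-extracted RNA was labelled as cDNA, IP-1 cells with Cy5 and untreated cells with Cy3. Per the file headers, the deposited scanner tables hold mean raw intensity and mean and SD of the local background per spot; the software is not stated there. Values of the deposited matrix are log10 ratios of raw Cy5 to Cy3, which equalled the scanner ratios within 4.98e-07. It is neither background-subtracted nor centred, with medians of −0.216 and −0.222 at 7 min. Its direction is thus known.

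Raw intensities were background-corrected (normexp, offset 50), normalised by global loess (span 0.3, 4 iterations, weight 0 for the 32 Arabidopsis-named features and 320 empty spots), and spots averaged. The background filter is lenient, since 88.4% (Cy5) and 86.9% (Cy3) of empty spots passed it. Fits used lmFit and eBayes (R 4.3.3, limma 3.58.1; two-sided, Benjamini-Hochberg) on the 6152 features that passed on all 4 arrays, and were tested on simulated data. Figures used Python 3.11.15 and matplotlib 3.10.9. Per the series' design text the cultures were grown independently, so p-values measure the spread between arrays of different exposures. Names come from the deposited tables, updated by locus tag for 5763 of 6336 features; 275 carry several names. Coordinates are omitted, since the probes come without a named build.

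Named were features past 2-fold, the 15 highest and 15 lowest single-name features past 1.5-fold in both spots and above background in both channels, features called without the 7 min array, all mating and strain marker genes, and of each other list the 1.5-fold members or its extremes. Some lists are given by their medians alone. Members and lists were chosen with earlier results of these data known. Background correction, normalization, filters, the fold limit, left-out spots and arrays, and other limma settings were varied.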

Additional observations from a re-analysis of the deposited data

How the results depend on the processing

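The direction of the 32 features followed through the alternatives held except for LOC1 (−0.22), YMR304C-A (−0.44), TAX4 (−0.13), CDC24 (−0.28), SST2 (−0.73), SUT1 (−0.20) and YDL211C (−0.40). These 7 turned negative in the deposited log ratios without centring, whose median lies below 0. Of the other values, 290 moved by less than the spot spread, and 114 moved by more without changing sign. The 290 include the settings that changed only the filter. These leave every value as it was, so their agreement was fixed in advance, and features that failed a filter were not counted. The sizes of the features past 2-fold varied with the setting, the deposited ratios included. AGA1 ran from 0.67 to 2.01, MRPL25 from 0.29 to 1.83 and FIT2 from 0.52 to 1.25. SBH1 ran from −1.27 to −0.45, and the feature with YPR002C-A from −1.36 to −0.63. The 7 min counts of 13 higher and 50 lower became 45 and 179 with plain background subtraction, 60 and 216 with normexp offset 0, 8 and 27 with no background correction, 30 and 85 with median centring, 1 and 3638 in the deposited ratios without centring, 775 and 79 in those after median centring, and 3 and 2 at 2-fold. With 1 spot they ranged from 20 to 24 higher and from 106 to 109 lower, as fewer spots had to pass. Plain subtraction and offset 0 kept all 13 and all 50. The split of higher against lower calls thus turned round in the median-centred deposited ratios. The other filters, loess span 0.7 and loess within each print block (16 and 43; chosen after seeing the data) stayed within 1.5 times. Among these, requiring both channels above the empty spots left 13 higher and 39 lower.

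The difference between 7 min and the other exposures had 0 calls, 2692 in the deposited ratios without centring and 1 with either spot alone; leaving out any other array gave 0. The mean of the other exposures had 10 calls, and 55, 42, 0 and 34 with plain subtraction, offset 0, no correction and median centring, 0 in either form of the deposited ratios (1049 and 763 at unadjusted p under 0.05 in limma), 25 with print block loess, 261 with an intensity trend and robust fitting, and 441 with duplicateCorrelation. It ranged from 33 to 42 with 1 spot and from 0 to 20 with 1 array left out. The mean of all exposures had 548 calls, and 263 with no correction, 304 with median centring, 59 and 5 in the deposited ratios without and with centring, 218 above the empty spots and 930 with duplicateCorrelation. It ranged from 10 to 575 with 1 array left out. Where not stated, the cause was not tested.

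No paired analysis was possible because replicates 1 and 2 are the duplicate spots of 1 array, on which IP-1 and untreated RNA are already paired. A slide block could not be fitted, since each slide is 1 exposure. Dim features and the single pair of cultures limit the 7 min values.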

Other observations

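The features below were chosen after their values were seen. SCW10, a glucanase-like protein of the cell wall, is represented by YMR305C and by a feature with the suffix -r, YMR305C-R, which the files do not define. From 3.5 to 30 min SCW10 was at 0.57, −0.18, 0.64 and 0.00, and YMR305C-R at 0.58, −0.36, 0.64 and 0.17, so both features were below 0 at 7 min and above 0.5 on either side. NUP42, a nuclear pore protein, ran the other way, at −0.10, 0.53, 0.08 and −0.08. TIM8, which helps import mitochondrial proteins, was at −0.53 at 7 min and between −0.04 and 0.16 elsewhere. None of these passed an adjusted test of the difference.

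Chromosome XIII held 12 of the 40 lower features that have 1 gene name and a chromosome, while it holds 471 or 7.95% of such features. On the other arrays it held 7 of 59, 39 of 297 and 1 of 12 such features at 3.5, 15 and 30 min, so its share was 30% at 7 min, against 11.9%, 13.1% and 8.33% there. Its median ratio at 7 min was −0.016, and its 12 lower features lay in 9 print blocks. HXT2, GOT1, YMR103C, HSH155, PLB1 and YMR290W-A lay in column 4 of the blocks, the rest of the 12 in columns 1 to 3. Over all lower features, the blocks of column 4 held 1, 8, 3, 1, 3, 1, 1 and 2 from row 1 to row 8. Each block of the other columns held 0 to 4. Of the 12, 3 lay in the block with the most lower features of any (row 2, column 4), which held 8 among 197 features. That block held 6 with loess within each print block. The chromosome XIII count was 11 with loess within each print block and 16 with median centring. In 7 pairs, lower features of different locus tags stood at most 5 numbers apart on a chromosome arm, among them GAL7 and GAL1, GET2 and YER085C, YER085C and SBH1, HSH155 and YMR290W-A, and YMR290W-A and GOT1. YGR254W and YGR254W-R, which carry the same gene names, made a further pair. The features of 0 of these 8 pairs shared a print block, but most shared a column of blocks. YGL088W and MF(ALPHA)2 both lay in column 2, and YGR254W and YGR254W-R lay in columns 4 and 1. In all the other pairs both features lay in column 4. How many such pairs to expect was not computed. Position effects and shared control were not tested.

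The spots of 5 features lay more than 1 apart on the log2 scale, as for YBR078W-R at 0.11 and −1.96 and YGR259C at −1.30 and 0.01. The mean of such features passes for a change at 7 min although 1 spot shows none. The 32 Arabidopsis-named features had a median of −0.30 at 7 min, with 23 below 0, 3 at least 1.5-fold lower and 0 higher in both spots.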
